A study of Homo sapiens with 6 samples.

Results

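The promoters described here are those that lie between 2 protein-coding genes transcribed away from each other, in K562, an established human chronic myeloid leukaemia cell line. A pair was taken from the GENCODE release 29 annotation of build GRCh38 when a minus-strand gene lay upstream of a plus-strand gene and their outermost annotated 5′ ends (here the gene starts) were at most 1000 bp apart on chromosomes 1 to 22 or X. This gave 754 pairs with 1468 genes, out of 19864 protein-coding genes, and the other 18396 genes served for comparison. Of the paired genes, 40 belonged to more than 1 pair, so the pairs made up 714 separate loci. The distance between the starts ran from 1 to 978 bp, with quartiles at 61.25, 119 and 252.25 bp.

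In a bidirectional promoter, polymerases are loaded in both directions from one open stretch of DNA, each from its own core promoter. Such promoters are common in mammalian genomes, are often rich in CpG and poor in TATA boxes, and are known for DNA repair, chaperonin, mitochondrial and histone genes. Precision run-on sequencing (PRO-seq) maps engaged polymerases by letting permeabilized cells add biotin-labelled nucleotides to their nascent RNA. dREG is a classifier that calls active promoters and enhancers from run-on reads on both strands, so a dREG peak carries no strand and is not assigned to one gene of a pair.

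The 6 libraries came from untreated K562 cells in 3 groups with 2 biological replicates each. One group, PRO-seq 1M, followed the protocol in print before the study, with 1M permeabilized cells per library. A quicker protocol with a single affinity purification was run on the same input (qPRO-seq 1M) and on 250k cells (qPRO-seq 250k). The labels place the replicates at different passages of the line. Each group had 1 peak list for both replicates, with 24707, 38177 and 15562 peaks on the chromosomes used. No value per replicate and no read count was used here, so the depth behind a list is unknown, no p-value was computed between groups, and intervals cover counting error only. The labels call the line lymphoblastoid. At any transcript start, 10 of 11 erythroid and K562 marker genes had a qPRO-seq 1M peak, among them GATA1, TAL1 and HBG1, and HBA2 had none. Of 5 T-lymphoid markers none had one, and of 4 epithelial markers EPCAM, KRT8 and KRT18 did.

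Sequences between the starts of 4 pairs are shown because they cover the range of results below, from a histone pair with high-scored peaks in every list to a collagen pair with no peak. They are from the RefSeq promoter table (GRCh38.p14), on the plus strand, from the base after the minus-strand start to the base before the plus-strand start. Capitals mark the letters CCAAT of the NF-Y site, the GC box GGGCGG bound by SP1, and the octamer ATGCAAAT known from histone promoters, each also as its reverse complement. The intervals are chr6:26123927-26124144, chr4:56435616-56435740, chr14:20455106-20455190 and chr2:227164454-227164564, in the order printed.
HIST1H2BC/HIST1H2AC: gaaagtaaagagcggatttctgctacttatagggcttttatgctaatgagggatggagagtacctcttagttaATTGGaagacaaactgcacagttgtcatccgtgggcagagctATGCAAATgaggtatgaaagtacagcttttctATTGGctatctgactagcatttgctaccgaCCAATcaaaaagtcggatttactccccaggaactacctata
PPAT/PAICS: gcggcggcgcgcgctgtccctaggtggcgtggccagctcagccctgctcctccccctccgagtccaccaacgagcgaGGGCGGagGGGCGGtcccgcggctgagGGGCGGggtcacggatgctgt
OSGEP/APEX1: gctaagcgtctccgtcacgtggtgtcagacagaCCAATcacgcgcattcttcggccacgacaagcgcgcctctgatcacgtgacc
COL4A4/COL4A3: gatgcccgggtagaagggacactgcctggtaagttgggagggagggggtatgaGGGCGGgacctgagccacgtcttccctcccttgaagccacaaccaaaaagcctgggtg
The histone interval had 41.7% G and C with 4 CpG, the purine-enzyme interval 76.0% with 15, the repair-gene interval 60.0% with 10, and the collagen interval 61.3% with 3. In the histone interval CCAAT stood 3 times and the octamer ATGCAAAT once, and GGGCGG stood 3 times between PPAT and PAICS.

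Most coding pairs were marked by a peak in every protocol. A pair was scored as active in a list when a peak lay within 500 bp of the interval between its starts. In PRO-seq 1M, 622 of 754 pairs were active (82.5%, Wilson 95% interval 79.6 to 85.0%). In qPRO-seq 1M, 628 were active (83.3%, 80.5 to 85.8%), and in qPRO-seq 250k 561 were (74.4%, 71.2 to 77.4%). As background, a start peak was present at 46.2%, 47.5% and 38% of all protein-coding genes in these lists, in the same order. Widening each gene's window upstream by the median pair distance raised this to 46.4%, 47.7% and 38.1%. The pairs' share was therefore above the background in each list by far more than the counting error. The window of a pair holds both of its starts, whereas the background is drawn around a gene's own start, so the measures are not fully alike.

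The 3 lists marked largely the same pairs. A peak in all 3 lists was found at 553 pairs (73.3%), and in none at 110 (14.6%). Another 54 pairs were active in both 1M lists and not at 250k. The remaining pairs comprised 16 found by qPRO-seq 1M alone, 13 by PRO-seq 1M alone, 5 by both lists of the quick protocol, 2 by PRO-seq 1M together with the 250k list, and 1 at 250k alone. Of the pairs active in PRO-seq 1M, 607 of 622 (97.6%) were active in qPRO-seq 1M, and in the other direction 607 of 628 (96.7%) were. Scores were ranked within each list as percentiles (100 is the top score). The median top-peak percentile in qPRO-seq 1M was 85.7 for pairs in all lists, 54.0 for pairs in both 1M lists and 36.5 for pairs in qPRO-seq 1M alone. Pairs missing from a list thus had lower-ranked peaks, in the median, in the lists that held them.

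Genes in a pair had a start peak far more often than other protein-coding genes. To give both kinds of gene a window of the same width, a start peak was counted within 500 bp of each gene's own 5′ end. In PRO-seq 1M, 1196 of 1468 paired genes (81.5%) and 7989 of 18396 unpaired genes (43.4%) had one, a difference of 38.0 percentage points (Newcombe 95% interval 35.9 to 40.1). In qPRO-seq 1M the shares were 82.4% and 44.7% (37.7 points, 35.5 to 39.7). In qPRO-seq 250k they were 73.8% and 35.1% (38.6 points, 36.2 to 40.9). The 2 genes of a close pair share one window and often one peak, so they are not independent and these intervals are too narrow. In most pairs the window of a gene also holds its partner's start, so a peak of either gene is counted. The same holds for the peak scores, covered sequence and 250k recovery given below. How much of the differences goes with this was not tested.

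**Figure D1:**
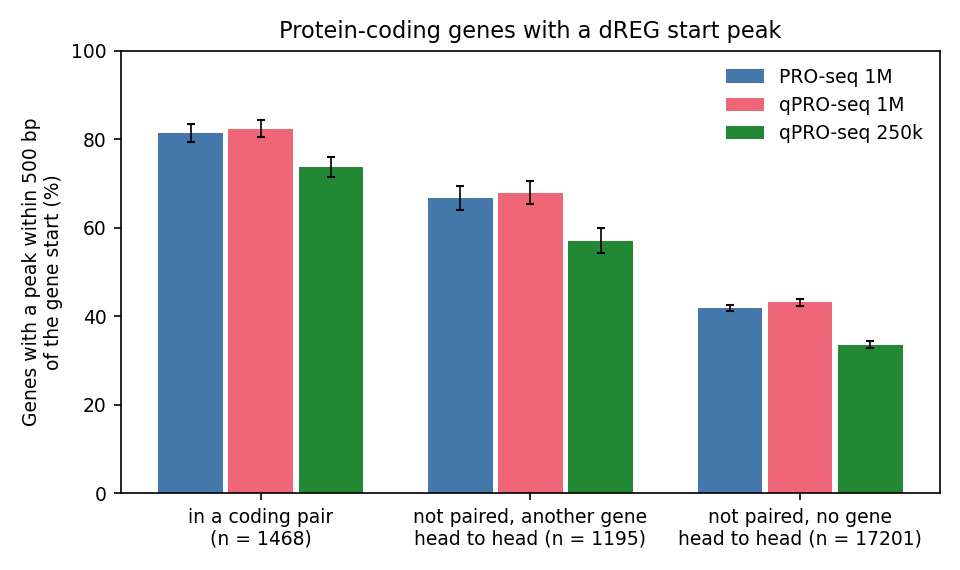
Share of protein-coding genes with a dREG peak within 500 bp of the gene start (vertical axis, percent), by the gene's neighbour (horizontal axis) and peak list (colour), with Wilson 95% intervals as bars. Paired genes stand at 73.8 to 82.4% and genes head to head with another kind of gene at 57.1 to 67.9%. Genes with no gene head to head stand at 33.6 to 43.1%. Overlapping starts did not count as head to head, so this last group can hold genes of overlapping divergent pairs.

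A head-to-head neighbour of another kind went with an intermediate share. Among the unpaired genes, 1195 had a gene that was not in a coding pair with them, such as a long noncoding RNA gene, head to head within 1000 bp. Of these, 66.8%, 67.9% and 57.1% had a start peak in the 3 lists, in the order above. The paired genes exceeded them by 14.7 points (11.4 to 18.0), 14.5 points (11.2 to 17.8) and 16.7 points (13.1 to 20.3). The comparison genes also include 1116 in divergent coding pairs whose starts overlap by up to 1000 bp, which the distance rule leaves out. Overlapping starts did not count as head to head. Such genes thus fall in the group with no gene head to head, unless another gene started upstream. The 1116 genes stood close to the paired genes, with a start peak at 77.4%, 78.9% and 68.7% of genes. At the rule's limit, HES4/ISG15 (966 bp) and HSPBAP1/DIRC2 (971 bp) had peaks in all lists and TNS1/RUFY4 (978 bp) had none. Just outside it, AC008764.4/TMEM38A (1012 bp) had peaks in all lists, USH1G/OTOP2 (1019 bp) in both 1M lists, and MS4A6A/MS4A4A (1036 bp) in none.

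Once a start was marked, the peaks of paired genes scored only a little higher. The median percentile of the top start peak was 78.8 in paired against 75.4 in unpaired genes in PRO-seq 1M. In qPRO-seq 1M it was 83.6 against 79.6, a difference of 3.98 (2.74 to 5.13), and at 250k it was 70.6 against 67.0. Marked paired starts also had more sequence under peaks, with medians of 718.5 and 641 bp in qPRO-seq 1M and 560 and 490 bp at 250k. Against unpaired genes with another head-to-head gene, the interval of the percentile difference included 0 in all 3 lists (1.88, −0.50 to 3.32, in qPRO-seq 1M).

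Paired starts were recovered more often from the smaller input. Of genes with a qPRO-seq 1M start peak, 1076 of 1210 paired genes (88.9%) and 6402 of 8232 unpaired genes (77.8%) also had one at 250k. Within deciles of the qPRO-seq 1M score the difference averaged 6.20 points (3.97 to 8.17), against 11.2 points with no adjustment. In the lowest decile, 21 of 58 paired genes (36.2%) and 216 of 887 unpaired genes (24.4%) were recovered. By the fourth decile the shares were 91.7% and 79.2%, and in the top decile they were 100% and 99.0%. The gap was widest in the lowest 4 deciles. In the opposite direction, 99.4% of paired and 99.1% of unpaired genes marked at 250k were marked in qPRO-seq 1M (0.28 points, −0.43 to 0.71). The 250k list is the shorter (15562 against 38177 peaks) and both shares were near 100%, so a gap could hardly appear there.

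**Figure D2:**
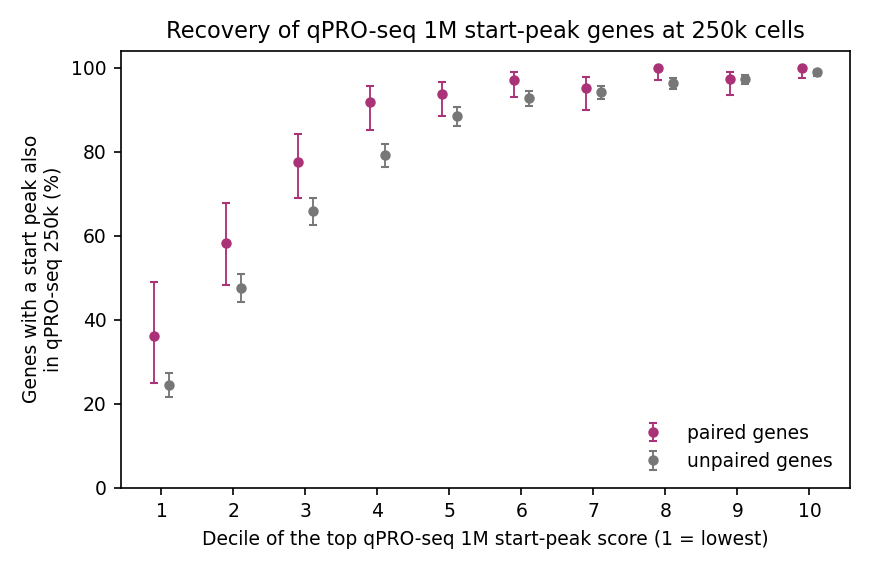
Share of genes with a qPRO-seq 1M start peak that also had one in qPRO-seq 250k (vertical axis, percent), by decile of the top qPRO-seq 1M start-peak score (horizontal axis), for paired and unpaired genes, with Wilson 95% intervals. Recovery rises from 36.2% and 24.4% in the lowest decile to 100% and 99.0% in the highest.

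At most active pairs a single stretch of peaks covered both starts. Neighbouring dREG peaks often lie 20 bp apart, so peaks up to that distance were first joined. A joined peak then held both starts at 546 of 622 active pairs in PRO-seq 1M (87.8%), at 557 of 628 in qPRO-seq 1M (88.7%) and at 463 of 561 at 250k (82.5%). The share fell with the distance between the starts. In qPRO-seq 1M it was 100% of 119 active pairs at 1 to 50 bp, 96.8% at 101 to 200 bp, 91.6% at 201 to 300 bp, 76.3% at 301 to 500 bp and 30.6% at 501 to 1000 bp. Single peaks had median widths of 430 to 450 bp in the 3 lists, more than the distance between the starts of most pairs.

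Distance changed the share of active pairs much less. In qPRO-seq 1M the 6 distance groups had 73.8 to 90.2% of their pairs active. The highest share was at 201 to 300 bp (83 of 92) and the lowest at 301 to 500 bp (59 of 80, 63.2 to 82.1%). The same 2 groups were highest and lowest in PRO-seq 1M and at 250k.

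**Figure D3:**
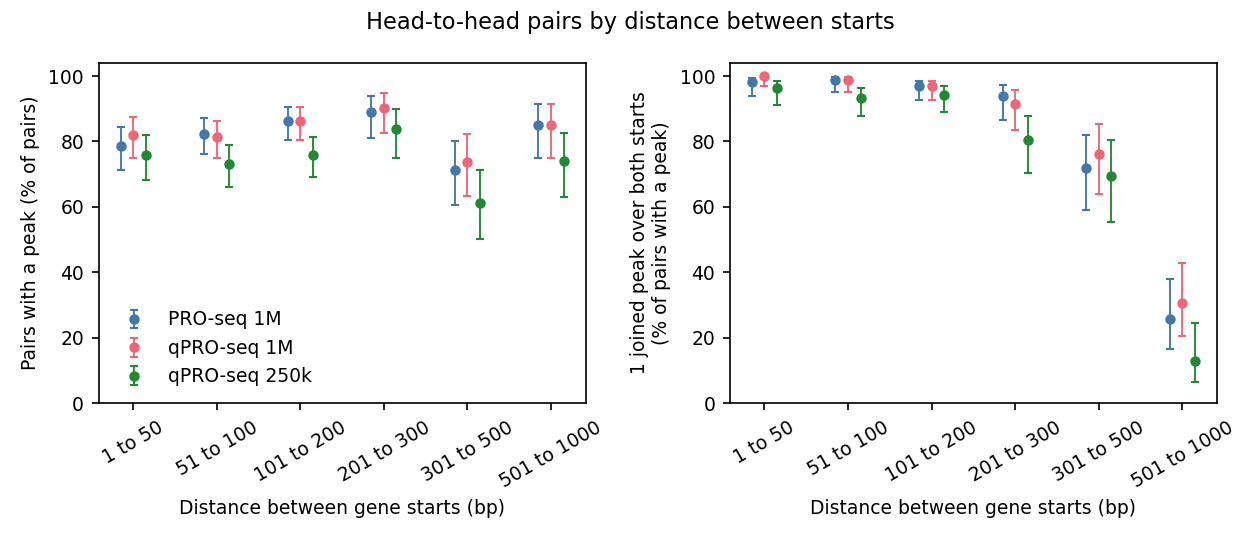
Left, share of pairs with a peak; right, share of active pairs in which 1 joined peak covers both starts (vertical axes, percent), by distance between the gene starts (horizontal axes, bp) and list (colour), with Wilson 95% intervals. Coverage of both starts drops from 100% at 1 to 50 bp to 30.6% at 501 to 1000 bp in qPRO-seq 1M, while the share of pairs with a peak stays between 73.8 and 90.2%.

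In close pairs the top-scored peak was centred near both the starts and their midpoint. In wide pairs it was, in the median, nearer to one of the starts than to the midpoint, which the search window itself favours. The median distance of its centre from the midpoint was 43.5 bp for starts 1 to 50 bp apart and 354.5 bp for starts 501 to 1000 bp apart in qPRO-seq 1M. From the nearest start it was 33 and 125 bp in these groups, so the centre was less close to a start in the wide pairs. The window reaches 500 bp beyond each start, so in wide pairs most of it lies nearer to a start than to the midpoint. The medians of the wide group therefore do not show that peaks sit at the starts. In that group 54.8% of the qPRO-seq 1M centres lay between the starts. Over all active pairs the median distance from the midpoint was 68.25, 74 and 63 bp in the 3 lists. Neither strand was clearly favoured, with the centre on the minus-strand gene's side at 332 pairs and on the plus-strand gene's side at 296 in qPRO-seq 1M. In wide pairs the side mostly recurred between lists. Of 53 pairs over 500 bp apart with peaks in all lists, 38 had the centre on the same side each time, 19 on each side. Between lists the top centres of a pair lay a median of 40 to 50 bp apart.

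**Figure D4:**
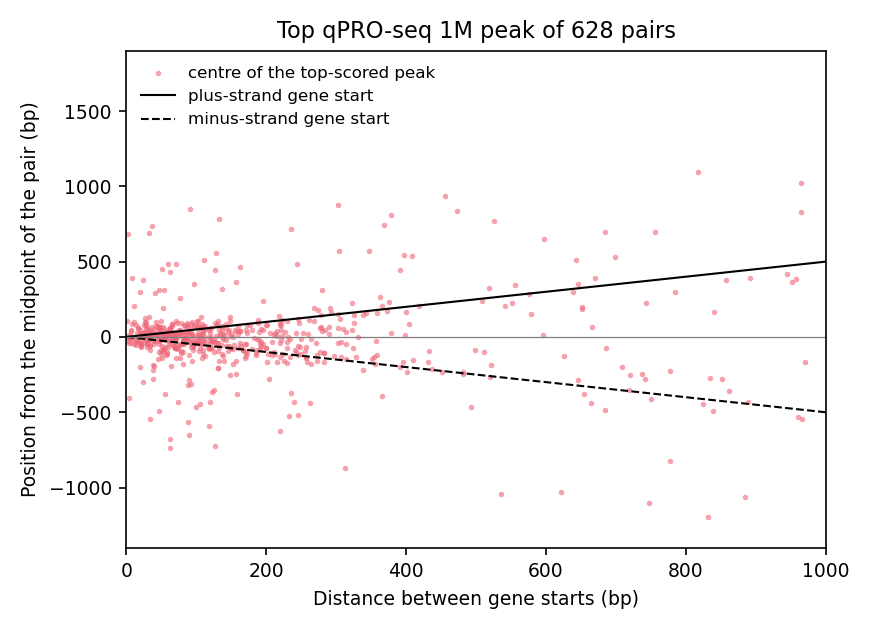
Centre of the top-scored qPRO-seq 1M peak relative to the midpoint of each of 628 active pairs (vertical axis, bp, positive toward the plus-strand gene) against the distance between the gene starts (horizontal axis, bp). Points cluster around the midpoint and both starts in close pairs and lie along the 2 start lines in many pairs over 500 bp apart.

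The closest pairs active in all lists had starts 2 bp apart. METTL4/NDC80 (chr18:2571509-2571511), a methyltransferase-family gene and a kinetochore gene, had top-peak percentiles of 91.3, 98.0 and 93.1, given first for PRO-seq 1M, then for qPRO-seq 1M and last for the 250k list, the order used for all such values below. TDP2/ACOT13, a DNA-end repair enzyme and a thioesterase, had 91.5, 92.7 and 84.4. PRKDC/MCM4, a DNA-break repair kinase and a subunit of the replicative helicase, had 78.3, 79.0 and 74.1. The top peaks of all 3 pairs ranked high in every list, with 74.1 as the lowest value. For PRKDC/MCM4 the top peak was centred 25 bp from the nearest start in PRO-seq 1M. In the qPRO-seq lists it was centred 685 and 705 bp away, on the MCM4 side, and a lower-scored peak covered both starts. HMGN5/SH3BGRL was closer still, at 1 bp, and had a peak in qPRO-seq 1M alone (81.4).

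The widest active pairs had their starts 965 to 971 bp apart. HES4/ISG15 (chr1:1000172-1001138) joins a transcriptional repressor and an interferon-induced ubiquitin-like protein. Its percentiles were 95.2, 83.5 and 81.0, and the top centre lay 535, 545 and 525 bp to the HES4 side of the midpoint. In HSPBAP1/DIRC2 the top centre lay beyond the DIRC2 start in PRO-seq 1M and at 250k, and on the HSPBAP1 side in qPRO-seq 1M. In APBA3/MRPL54 it moved from the APBA3 side in PRO-seq 1M to the MRPL54 side in both qPRO-seq lists. The side thus held in 1 of these 3 pairs.

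Some wide pairs were marked at 1 start alone. A start was taken as marked when it lay in a peak or within 100 bp of one. Of 245 pairs over 200 bp apart, 131 had both starts marked in all lists and 39 had neither start marked in any. In 15 pairs 1 start was marked in all lists and the other in none, 7 at the minus-strand and 8 at the plus-strand gene. The widest 5 of these were PFN4/AC008073.3, RPS23/ATP6AP1L, ARFRP1/AL121845.3, ALS2CL/TMIE and TMEM256-PLSCR3/NLGN2, all marked at the minus-strand gene. RPS23, a ribosomal protein gene, had a peak near its start in every list (percentiles of the pair 80.7, 62.2 and 58.6), and ATP6AP1L, 885 bp away, had none. In qPRO-seq 1M the top-scored peak was centred 617 bp from the RPS23 start, and a lower-scored peak covered that start. ALS2CL had one in every list (87.9, 83.2 and 51.1), while TMIE, an inner-ear gene, had none.

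**Figure D5:**
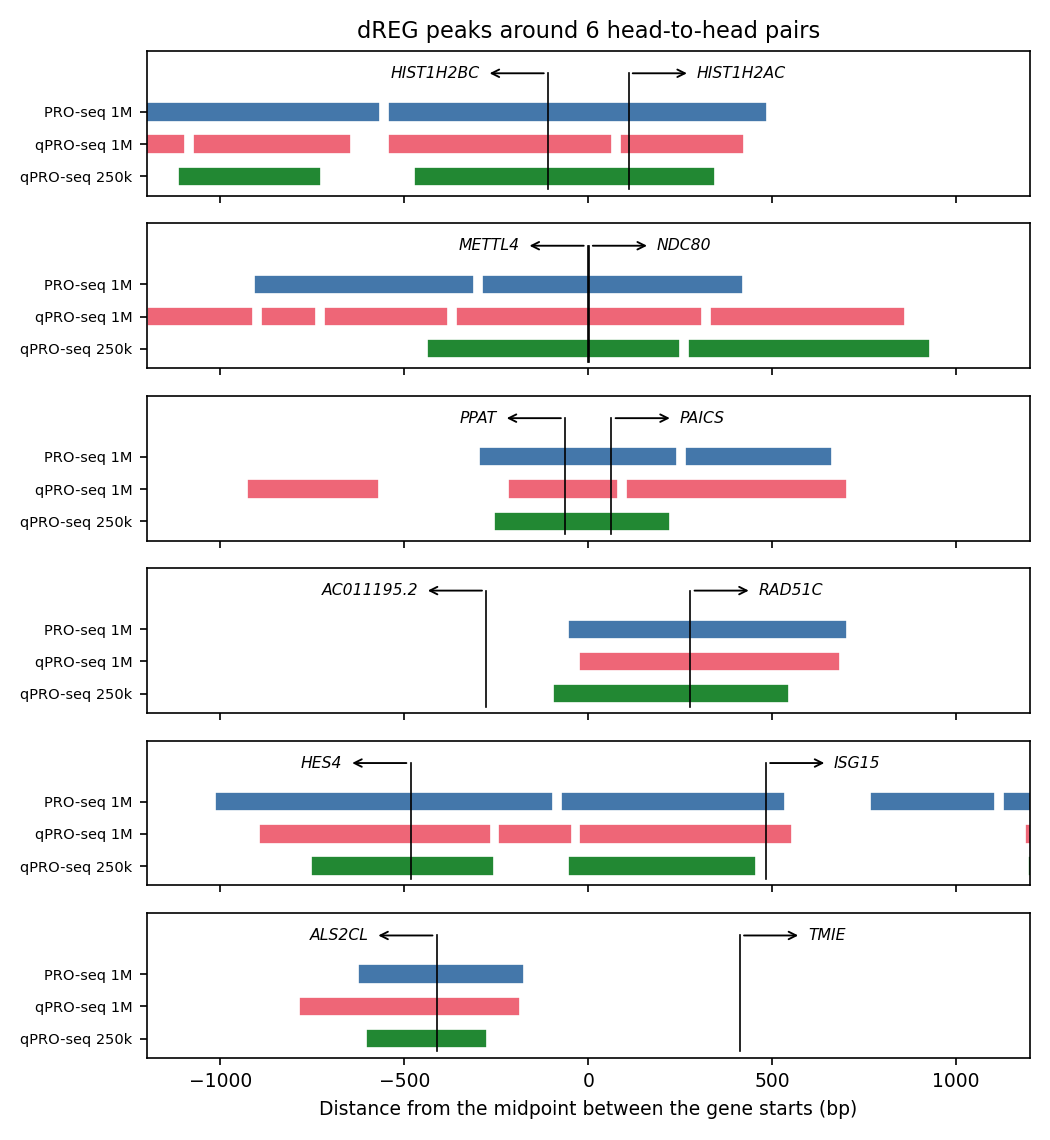
Deposited dREG peaks of the 3 lists (coloured bars, 1 track per list) around 6 pairs, by distance from the midpoint between the starts (horizontal axis, bp), with arrows at the starts and in the direction of each gene. The histone, METTL4/NDC80 and PPAT/PAICS starts lie under or beside continuous peaks, whereas RAD51C and ALS2CL have peaks and the partner start 555 or 824 bp away has none.

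Histone pairs ranked near the top of every list. H2A and H2B genes, which encode partner histones of the nucleosome and are transcribed in S phase, often stand head to head. Of 71 replication-dependent histone genes 23 were paired, in 13 pairs at 11 loci, with starts 219 to 357 bp apart. In 12 of the 13 pairs a peak was found in all 3 lists, and in those 12 a joined peak covered both starts in every list. Their percentiles ran from 91.1 to 99.8, from 96.7 to 99.5 and from 96.7 to 99.96 in the 3 lists. The medians were 97.5, 98.4 and 99.4, beside 82.4, 85.7 and 71.9 for all pairs present in the 3 lists. The lists differ in length, so these ranks show no change between them.

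The 5 pairs with the highest mean percentile were all histone pairs. HIST1H2AA/HIST1H2BA (chr6:25726527-25726777), whose genes are best known from testis, had 99.8, 99.4 and 99.9, with 1 peak per list centred within 28 bp of the midpoint. HIST1H2BK/HIST1H2AH had 99.4, 98.7 and 99.96, and HIST1H2BL/HIST1H2AI had 98.4, 99.4 and 99.7. The remaining 2, AL031777.3/HIST1H2BF and HIST1H2AD/HIST1H2BF, share a gene and the same peaks (98.4, 99.5 and 99.9). HIST1H2BC/HIST1H2AC, whose interval is printed above, had 97.2, 97.9 and 96.7. The exception was HIST1H2AJ/HIST1H2BM (chr6:27814740-27815044), which had no peak in any list.

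The share of marked genes was lower among histone genes outside pairs, without a test. A start peak was present at 21 of 23 paired histone genes in each list, and at 23, 29 and 22 of the 48 unpaired ones, beside 46.2%, 47.5% and 38% of all genes. Histone genes have near-identical copies, and the treatment of reads that match several copies is not given in the sources used here.

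The histone pairs also differed in promoter sequence from most pairs. RefSeq promoters (250 bp before to 50 bp after the start) were matched for 1199 paired and 14105 unpaired genes. Each motif was searched on both strands, and the 2 promoters of a close pair overlap, so they are not independent counts. CCAAT, a site for the factor NF-Y, was in 21 of 21 paired histone promoters, in 43.5% of all paired and in 34.6% of all 35116 RefSeq promoters. TATAAA was in 17 of 21, against 5.59% of paired and 11.5% of all promoters. The octamer ATGCAAAT, long known from H2B promoters, was in 17 of 21, against 2.34% and 1.77%. The letters of the ETS-family site, CCGGAAGT, were in none of the 21. TATAAA was in 9.95% of unpaired promoters. Among promoters with a qPRO-seq 1M start peak it was in 5.88% of paired and 5.05% of unpaired ones (0.83 points, −0.59 to 2.55).

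Among paired genes at large the ETS, NRF1 and CCAAT letters were more frequent. CCGGAAGT (the same as ACTTCCGG on the other strand) was in 12.1% of paired, 5.83% of unpaired and 4.14% of all promoters. GCATGCGC, the core of the NRF1 site, was in 8.01%, 3.92% and 3.05%. Among promoters with a qPRO-seq 1M start peak, paired ones still held CCGGAAGT more often (12.5% against 10.0%, a difference of 2.44 points, 0.38 to 4.76) and GCATGCGC too (9.33% against 5.79%, 3.54 points, 1.77 to 5.59). CCAAT was in 43.5% of paired and 36.0% of unpaired promoters, and among marked promoters in 44.8% and 37.9% (6.91 points, 3.62 to 10.2). GGGCGG, the GC-box bound by SP1, was in 71.5% of paired and 58.2% of unpaired promoters. Among marked promoters that difference was −1.36 points (−4.43 to 1.56). It was in 45.0% of all promoters. TGACGTCA, the cyclic-AMP response element, was in 4.09%, 2.52% and 1.85%, and AAGATGGC, the core of the YY1 site, in 5.67%, 3.83% and 2.89%. Among marked promoters the difference was 0.55 points (−0.63 to 2.05) for TGACGTCA and −0.06 (−1.53 to 1.71) for AAGATGGC.

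The CpG content of marked and unmarked genes was further apart outside pairs than within them. The median promoter of paired genes held 26 CpG with a qPRO-seq 1M start peak (lower quartile 20) and 25 without (14). For unpaired genes these medians were 27 (20) and 11 (4). Genes were then split into 5 groups of about equal size by CpG number. In the group with the fewest CpG (0 to 6), 37 of 60 paired genes (61.7%) and 269 of 3001 unpaired genes (8.96%) had a qPRO-seq 1M start peak, a difference of 52.7 points (40.0 to 64.0). Over the next 3 groups the share of paired genes was 77.1, 88.3 and 86.5%, and that of unpaired genes 36.5, 62.8 and 66.2%. In the group with the most (34 to 69) the shares were 78.0% and 64.3% (13.7 points, 8.10 to 18.6). Averaged within these groups the difference between paired and unpaired genes was 30.6 points (27.3 to 33.5), against 37.7 without the split.

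Pairs known from the literature were few under this distance rule. Of 24 well-known pairs 7 met it. The rule also leaves out pairs whose starts overlap, and how many of the others do so is not given here. PPAT/PAICS, which encode enzymes of purine synthesis, was active in all lists with percentiles of 70.1, 80.7 and 34.9. In qPRO-seq 1M the top-scored peak was centred 442 bp to the PAICS side of the midpoint. The peak over both starts ranked at 22.2 there. ZAR1L/BRCA2, with the homologous-recombination gene, had 91.1, 97.0 and 45.6. OSGEP/APEX1, a tRNA-modification gene and the main AP endonuclease of base-excision repair, had 50.5, 13.4 and 2.60, and so held one of the weaker peaks of the 250k list. Its top-scored peak in PRO-seq 1M was centred 349 bp from the nearest start, and a lower-scored one covered both starts. COL4A4/COL4A3, type IV collagen chains of the basement membrane, had no peak in any list. COL4A6/COL4A5 had 2 peaks, in qPRO-seq 1M alone. The top-scored one (39.1) was centred 569.5 bp to the COL4A5 side of the midpoint, and the other covered both starts. HIST1H2BC/HIST1H2AC and PRKDC/MCM4, given above, complete the list.

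DNA repair genes were often paired and mostly marked. Of 89 repair genes 23 were paired (25.8%), beside 1468 of 19864 coding genes. Start peaks were present at 21, 21 and 17 of the 23 paired and at 49, 52 and 43 of the 66 unpaired repair genes. AC011195.2/RAD51C, with a recombination gene, was the highest (99.6, 99.6 and 97.5). Its starts are 555 bp apart, and the centre lay 284.5, 344.5 and 294.5 bp to the RAD51C side of the midpoint, at the RAD51C start. RAD51D/FNDC8 had no peak in any list.

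Genes of mitochondrial translation and respiration were paired at similar rates. Of 78 mitochondrial ribosomal protein genes 17 were paired, and 15 of these had a start peak in each list, beside 52, 52 and 47 of the 61 unpaired ones. MITD1/MRPL30 reached 98.1, 99.6 and 98.9, and MRPL10/LRRC46 had no peak. Of 37 complex I subunit genes 9 were paired, with start peaks at 6, 8 and 5, and 28 were unpaired, with start peaks at 25, 25 and 23. In this list the paired genes were not marked more often than the others. AKAP3/NDUFA9, which shares AKAP3, a sperm gene, with AKAP3/AC005833.1, had 98.0 and 87.3 in the 1M lists and none at 250k. OSCAR/NDUFA3 had none in any list.

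Chaperonin, synthetase and proteasome pairs were few and active, and most unpaired genes of these families were marked too. All 4 paired chaperonin genes of 11 had a start peak in each list, beside 6, 6 and 5 of the 7 unpaired ones. PSPH/CCT6A, a serine-synthesis enzyme and a chaperonin subunit, had 99.5, 99.7 and 94.4, and PRADC1/CCT7 had 27.1, 14.2 and 25.6. All 3 paired aminoacyl-tRNA synthetase genes of 37 were marked in each list, beside 30, 30 and 28 of the 34 unpaired ones. AARS/DDX19B was the highest (91.5, 98.8 and 80.4) and LYRM4/FARS2 the lowest (57.3, 78.1 and 48.5). Of 48 proteasome genes 4 were paired, with start peaks at 4, 4 and 3, beside 31, 31 and 27 of the 44 unpaired ones. PSMD10/ATG4A had 94.3, 99.1 and 98.1, and PSMA7/SS18L1 had 45.5 and 38.4 in the 1M lists and none at 250k. These counts are too small to set the lists apart.

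Of 514 genes named ZNF, which encode zinc-finger proteins, 31 were paired (6.03%), close to the share of all coding genes (1468 of 19864). Start peaks stood at 26, 27 and 25 of them, and at 287, 316 and 231 of the 483 unpaired ones. ZSCAN32/ZNF174 was the highest (93.3, 95.3 and 96.5), and ZNF829/ZNF568 had no peak. Of 386 olfactory receptor genes, silent outside sensory neurons for the most part, 3 were paired and none of the 3 had a start peak in any list.

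Pairs found in a single list were mostly low in rank. In PRO-seq 1M alone the highest were CENPB/CDC25B, a centromere protein and a cell-cycle phosphatase (67.9), ZFYVE28/CFAP99 (47.2) and HES2/ESPN (39.6). In qPRO-seq 1M alone they were SIL1/MATR3 (89.0), HMGN5/SH3BGRL (81.4) and AC005041.1/WDR54 (58.8). SIL1/MATR3 had 2 peaks there. The top-scored one was centred 847.5 bp from the midpoint, toward MATR3, a nuclear matrix RNA-binding protein, and the other covered both starts. At 250k alone, LRP2BP/ANKRD37 stood at 2.81. In both 1M lists and not at 250k, the pairs with AKAP3 and ZNF182/SPACA5 (70.8 and 94.6) ranked highest.

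Of the 110 pairs with no peak in any list, 33 had a peak at another annotated transcript start of either gene. The absence of a peak at the outermost starts is therefore not a measure of whether the genes are transcribed. In the median, plus-strand promoters of pairs with no peak held about as many CpG as those of pairs active in all lists. The medians were 25 CpG (quartiles 12 and 36) and 26 (20 and 33), so the spread was wider among pairs with no peak.

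Chromosomes differed in the share of active pairs. In qPRO-seq 1M every pair on chromosomes 10 (20 pairs), 13 (15), 18 (7) and 21 (6) was active, while 33 of 49 on chromosome 17, 27 of 39 on chromosome 16 and 37 of 53 on chromosome 6 were. Numbers per chromosome are small, and no test of these differences was made.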

How the data were processed

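Peak lists of 3 groups (2 replicates each) were used. Per the submitters' processing notes, fastp 0.20.0, UMI-tools, Bowtie2 2.3.5.1 and deepTools 3.1.3 and build hg38 (GRCh38) were used; the dREG version, its thresholds and the pooling of replicates are not given in the sources used here. Peak scores are as the authors deposited them, from 0.237 to 1.54, with no unit, and were ranked within a list. The deposited p-value of each peak, at most 0.05, served in one alternative with a limit of 0.01. Starts count from 0 in the lists and from 1 here. The lists gave no read counts.

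Gene starts came from GENCODE release 29. Shares have Wilson 95% intervals, differences of shares Newcombe 95% intervals, and medians order-statistic intervals. Differences within score deciles or the 5 CpG groups were averaged with stratum sizes as weights. Python 3.11.15, NumPy 2.4.6, pandas 2.3.3, SciPy 1.17.1 and Matplotlib 3.10.9 were used, and the functions were tested on simulated peaks. RefSeq promoters (GRCh38.p14) were matched by symbol, chromosome and strand.

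Pairs and gene lists were chosen with earlier results of these data known. The pairs named were the textbook pairs, the 5 with the highest mean percentile, the 3 highest of each list-specific pattern, the 3 closest and 3 widest active pairs, the 5 widest one-sided pairs, and the highest and lowest of each gene list. Where several pairs of a list had no peak, the one named as lowest is arbitrary. A pair with no peak in one of the peak lists could still be named highest of its gene list, as AKAP3/NDUFA9 was. The motif ATGCAAAT and HIST1H2AJ/HIST1H2BM were added after values were seen, as were the pairs on either side of the distance limit. One of the marker lists checked is not reported here.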

Additional observations from a re-analysis of the deposited data

How the results depend on the processing

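Each group had 1 list with no value per replicate. No paired analysis was possible because of this, and leaving out a replicate was not possible either. Of 71 alternatives, 51 left the value within its interval, 20 moved it and none reversed it. The share of active pairs moved to 78.1% (PRO-seq 1M) and 70.0% (qPRO-seq 1M) with lists reduced to the 15562 top-scored peaks, so at equal length qPRO-seq 1M fell below the 250k list, which that step leaves as it is. With the upper-scored peaks alone (those not under their list's median) it was 73.2, 75.9 and 55.8%, and with p at most 0.01 it was 69.2% at 250k. The difference between paired and unpaired genes became 33.5, 33.3 and 36.0 points in the 3 lists, in the report's order, when any transcript start counted, and 29.2, 30.6 and 31.6 points within the 5 CpG groups (added after the data were seen). It became 40.3 points (PRO-seq 1M) and 41.2 (250k) for pairs at most 300 bp apart, 35.2 in qPRO-seq 1M at equal list length, and 30.7 at 250k with the median score. The percentile difference became 2.27 with the median score. The 250k recovery difference was 11.2 points without score deciles. In qPRO-seq 1M, 81.2% of active pairs had both starts under 1 peak when peaks were not joined, and 97.2% of those at most 300 bp apart had both under 1 joined peak. Depth is unknown, so a longer list and a deeper library cannot be told apart.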

Other observations

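Divergent coding pairs whose starts overlap by up to 1000 bp had a peak about as often as the pairs described above. There were 581 of them, and a peak lay within 500 bp of the shared stretch at 468 in PRO-seq 1M (80.6%, Wilson 95% interval 77.1 to 83.6%), at 474 in qPRO-seq 1M (81.6%, 78.2 to 84.5%) and at 427 in qPRO-seq 250k (73.5%, 69.8 to 76.9%). These shares lie within the intervals of the pairs that do not overlap.

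Histone promoters outside coding pairs held some of the same letters. Of all 40 unpaired histone promoters, 30 held CCAAT, 23 TATAAA and 9 ATGCAAAT, beside 21, 17 and 17 of the 21 paired ones. Of the 7 unpaired H2B promoters, all 7 held CCAAT and 5 held ATGCAAAT, beside 11 and 9 of 11 paired H2B promoters. TATAAA was in 3 of these 7 and in 9 of the 11. Of the 4 unpaired H2A promoters, 4 held CCAAT, 3 ATGCAAAT and 2 TATAAA, beside 10, 8 and 8 of 10 paired ones. Of 10 unpaired H3 promoters, 10 held CCAAT, 8 held TATAAA and 1 held ATGCAAAT.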
